A study of Mus musculus with 7 samples.

Results

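The replication-dependent histone genes were defined by name, as the 67 protein-coding genes of GENCODE M21 (mm10) whose symbols start with Hist1h, Hist2h, Hist3h or Hist4. The set held 6 H1, 18 H2A, 18 H2B, 12 H3 and 13 H4 genes. Of the 67 genes, 54 were on chromosome 13, 10 on chromosome 3, 2 on chromosome 11 and 1 on chromosome 6. Their RNA was read in 7 libraries of RNA precipitated from mouse embryonic stem cells with an antibody raised against human EZH2, which methylates histone H3 within Polycomb repressive complex 2; the title of the series says that the antibody also recognises SAFB, an RNA- and DNA-binding nuclear protein. The design sets cells that lack SAFB and cells that lack EZH2 against cells that have both.

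These genes supply the bulk of histone protein while DNA is copied. They lie in clusters, mostly lack introns, and their messenger RNAs end not in a poly(A) tail but in a short stem-loop that is bound by the stem-loop binding protein SLBP. Their products are the core histones H2A, H2B, H3 and H4, which form the nucleosome, and the linker histone H1, which sits on the DNA between nucleosomes. The genes are most active in S phase, and embryonic stem cells, which divide fast, express them at high levels.

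All groups were male CAST/B6 cells with a recombinase-mediated cassette exchange site at Rosa26, cultured in medium with 15% fetal bovine serum (37 °C, 5% CO2), under 3 days of doxycycline induction; what was induced was not stated. SAFB DKO cells lacked both Safb and its paralogue Safb2 (n = 2, clones 13 and 4). EZH2 KO cells lacked Ezh2 (n = 2, clones 12 and 19). WT cells carried neither deletion (n = 3, the parental line and clones 20 and 44). Each knockout is represented by 2 clones, so a change that belongs to a clone cannot be told apart from a change that belongs to the genotype when both clones share it.

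The deposited table holds read counts for 303889 features, intervals on 1 strand whose names say that they were called on the WT libraries. Total counts were 18738499 and 15812517 in SAFB DKO, 7050832 and 8353603 in EZH2 KO, and between 19024702 and 21832539 in WT, so the EZH2 KO values carried the largest counting error. Safb had 1.41 and 0.592 CPM (counts scaled to library size) in SAFB DKO, against 239, 245 and 117 CPM in WT. Ezh2 had 2.26 and 0.157 CPM in EZH2 KO, against 173, 202 and 165 CPM in WT. The SAFB DKO libraries were thus close to 0 for Safb and the EZH2 KO libraries for Ezh2, and the WT library of clone 44 had less Safb than the other WT libraries. The column names of the EZH2 KO libraries follow another pattern and reuse a sequencing sample number of a WT library, so another sequencing run is possible, and genotype and run cannot then be told apart in comparisons with EZH2 KO.

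Of the 67 genes, 59 overlapped at least 1 feature on their strand, among 21970 genes that did, and the 64 features involved are the data described here. A gene's count was the sum of its features that overlapped no other gene. This gave 54 genes with a count of their own, and all 54 passed the filter on low counts, which asks for enough reads in at least as many libraries as the smallest group holds. Another 5 genes (Hist1h2ac, Hist2h2ab, Hist2h2bb, Hist2h3c1 and Hist3h2a) had only features shared with a neighbouring gene. The remaining 8 genes (Hist1h2ao, Hist1h2ap, Hist1h2bq, Hist1h2br, Hist2h2aa1, Hist2h2aa2, Hist1h4m and Hist1h4n) had no feature. Reads that map to several places were not counted by the authors, and histone genes include near-identical copies. In the genes with no feature, 0.00% to 14.4% of all 50-base stretches of the transcript occurred in no other annotated transcript, against a median of 54.2% in the genes with one, so reads of such copies may be split or lost, and the values of single copies are uncertain.

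The stem-loop is what these messengers share most plainly in sequence. Below are the stem-loops of 7 genes, chosen because each is described with its values further on or shows another version of the sequence. They are printed 5′ to 3′ on the strand of the gene from the GENCODE M21 transcripts, and capitals mark the 16 bases that fold into a stem of 6 base pairs with a loop of 4 bases.
Hist1h1d (H1): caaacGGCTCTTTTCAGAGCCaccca
Hist2h2ac (H2A): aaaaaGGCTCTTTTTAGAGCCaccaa
Hist1h2bg (H2B): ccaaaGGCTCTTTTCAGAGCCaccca
Hist1h3e (H3): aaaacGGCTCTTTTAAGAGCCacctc
Hist1h4d (H4): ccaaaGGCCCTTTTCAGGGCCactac
Hist1h4b (H4): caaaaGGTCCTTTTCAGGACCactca
Hist2h4 (H4): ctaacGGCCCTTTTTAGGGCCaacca

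In mm10 the capital letters lie at chr13:23555787-23555802 (plus strand) for Hist1h1d, chr3:96220418-96220433 (minus) for Hist2h2ac, chr13:23571843-23571858 (plus) for Hist1h2bg, chr13:23561903-23561918 (minus) for Hist1h3e, chr13:23581950-23581965 (plus) for Hist1h4d, chr13:23757366-23757381 (plus) for Hist1h4b and chr3:96262939-96262954 (minus) for Hist2h4. All lie in the 3′ untranslated region, between 21 bases (Hist2h2ac) and 38 bases (Hist2h4) after the stop codon. The search took any 16 bases on the transcript's strand that start with GG, have a loop starting with TT, and can pair the first 6 bases with the last 6, G-T pairs included. Within the first 100 bases after the stop codon it found a stem-loop in 44 of the 50 histone genes with at least 16 annotated bases there (88.0%), and in 62 of 20873 other protein-coding genes (0.297%). The versions were divided by histone type. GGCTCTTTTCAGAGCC was found in 26 genes of H1, H2A, H2B and H3, and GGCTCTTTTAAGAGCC in 6 genes of H1, H2B and H3. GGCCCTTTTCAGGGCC was found in 7 genes, all of them H4, and the remaining versions in at most 2 genes each. The features mostly stopped near this point: of 36 coding features of genes with a stem-loop, 22 ended within 25 bases of its last base, the median end was 12 bases before it, and 8 ran more than 100 bases past it.

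Compared with WT, the histone messengers as a class were more abundant in the SAFB DKO precipitates and less abundant in the EZH2 KO precipitates. Features of the 67 genes took 0.426% and 0.431% of all counts in SAFB DKO, 0.140% and 0.122% in EZH2 KO, and 0.267%, 0.261% and 0.261% in WT. The groups did not overlap, and the 95% exact Clopper-Pearson intervals of single libraries were narrow (0.424% to 0.429% in SAFB DKO replicate 1, 0.120% to 0.124% in EZH2 KO replicate 2, and 0.265% to 0.270% in WT replicate 1), though they cover counting error only. The mean share was 0.429% ± 0.00334 in SAFB DKO (SD, n = 2) and 0.263% ± 0.00381 in WT (SD, n = 3), 1.63-fold higher in SAFB DKO (two-sided exact permutation p = 0.10, the smallest that 2 against 3 libraries can give). In EZH2 KO the mean share was 0.131% ± 0.0127 (SD, n = 2), against the same WT value, 0.498 times as much (exact permutation p = 0.10). A lower or higher share can come from the amount of the messenger in the cells, from the fraction of it that was precipitated, or from the rest of the library; without input RNA these cannot be told apart, nor can fewer cells in S phase and less RNA per cell.

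**Figure D1:**
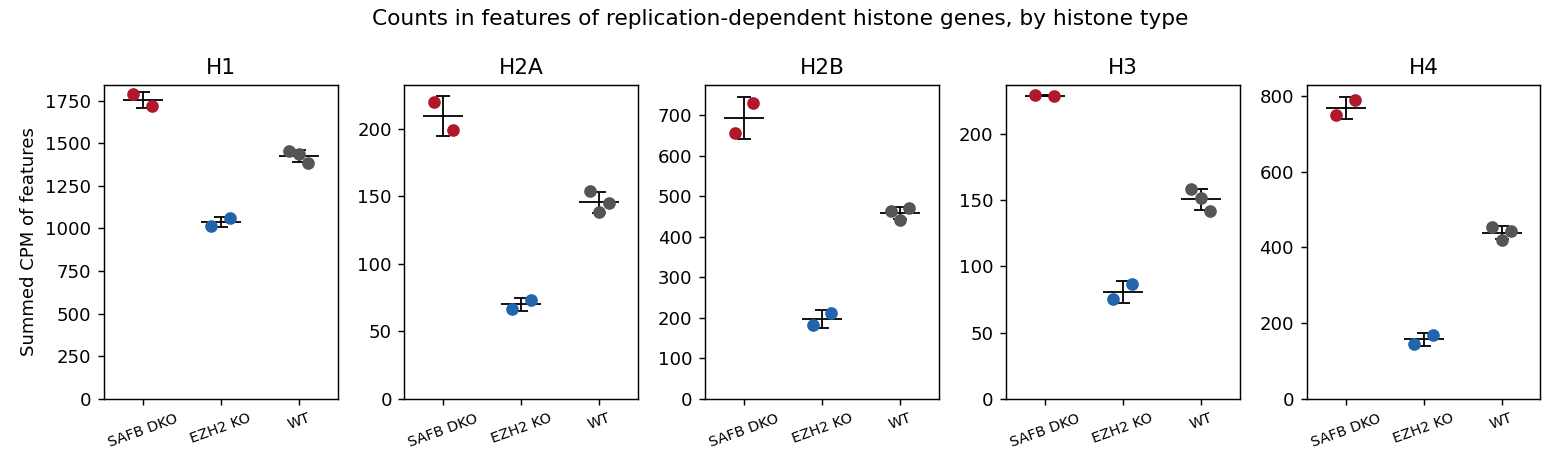
Summed CPM (counts scaled to library size) of all features of the replication-dependent histone genes, by histone type, in SAFB DKO, EZH2 KO and WT. The sums include features outside coding sequence, such as an intronic feature of Hist1h2be. Each point is a library, and the bar and whiskers are the mean ± SD. In all 5 types the SAFB DKO libraries lie above and the EZH2 KO libraries below every WT library, and the ratios of group means are farthest from 1 for H4 and nearest to 1 for H1.

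CPM here are counts divided by library sizes that were scaled on features outside the authors' list of filtered peaks. On this scale the tested genes were compared with edgeR's quasi-likelihood test, and "rose" and "fell" below mean an adjusted p under 0.05 over all 16710 genes tested. In SAFB DKO against WT, 30 of 54 histone genes rose and 0 fell, while 15.3% of all genes rose and 34.6% fell. The 24 others did not pass: 21 of them had a positive and 3 a negative log2 fold change. The median log2 fold change was 0.60 for the histone genes and -0.23 for all genes. In EZH2 KO against WT, 2 of 54 rose and 44 fell, while 25.3% of all genes rose and 22.5% fell; the median was -1.21 for the histone genes and 0.02 for all genes. Setting SAFB DKO against EZH2 KO, which tests the difference between the knockouts directly, gave 48 of 54 higher and 2 lower in SAFB DKO, with a median of 1.77; 28.8% of all genes were higher there and 41.2% lower, with a median of -0.34. SAFB DKO and EZH2 KO were both set against the same 3 WT libraries, so the first and the second of these comparisons are not independent.

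The choice of scaling moved all genes together. With column totals as library sizes, or with DESeq2's size factors, the median of all genes in SAFB DKO against WT was -0.0027 or 0.03, and that of the histone genes 0.83 or 0.86, so that the histone genes lay 0.83 above the median gene under each, as they did under the scaling used here. In EZH2 KO against WT, the median histone gene minus the median gene was between -1.25 and -1.23 under the 4 scalings. With libraries left out in turn, the number of genes that rose in SAFB DKO was 17 without SAFB DKO replicate 2 and 18 without WT replicate 2, and between 20 and 37 in the other cases; those that fell in EZH2 KO were between 41 and 44. Without the WT library of clone 44, 22 rose in SAFB DKO and 42 fell in EZH2 KO.

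**Figure D2:**
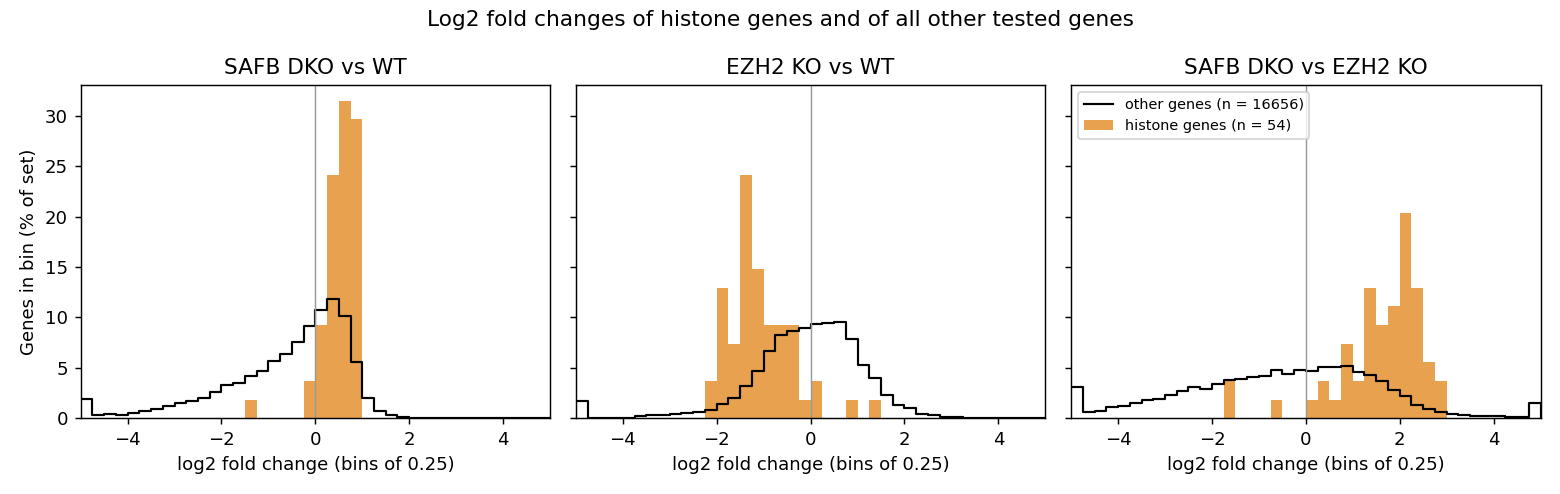
Share of genes in equal bins of log2 fold change, for the 54 tested histone genes (bars) and the other tested genes (line), in the 3 comparisons. Values beyond 5 in either direction are placed in the end bins. The histone genes sit right of the other genes in SAFB DKO against WT (median 0.60) and left of them in EZH2 KO against WT (median -1.21).

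H4, the core histone whose tail carries marks read during replication and repair, moved together. All 11 tested H4 genes rose in SAFB DKO, where 15.3% of all genes did, with log2 fold changes between 0.60 and 0.96. All 11 fell in EZH2 KO, where 22.5% of all genes did, with log2 fold changes between -1.91 and -1.13. The H4 features summed to 749 and 789 CPM in SAFB DKO, 144 and 169.5 CPM in EZH2 KO, and 454, 420.3 and 443 CPM in WT. The groups were far apart, with no library between them.

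Hist1h4d, the H4 gene with the highest level per length, had 216 and 235 CPM in SAFB DKO, 47.5 and 57.1 CPM in EZH2 KO, and 130.4, 118 and 134 CPM in WT. It rose by 0.82 ± 0.13 on the log2 scale in SAFB DKO (adjusted p = 0.00018) and fell by 1.29 ± 0.14 in EZH2 KO (adjusted p = 2.6e-05). Hist1h4c had 75.2 and 94.7 CPM in SAFB DKO, 15.8 and 21.1 CPM in EZH2 KO, and 52.7, 46.1 and 54.2 CPM in WT. Both genes showed the same order of groups, and in both the groups did not overlap.

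Hist1h4h had 85.7 and 95.3 CPM in SAFB DKO, 13.1 and 13.5 CPM in EZH2 KO, and 51.6, 44.0 and 47.2 CPM in WT, and its difference between the knockouts, 2.77 ± 0.18 on the log2 scale (adjusted p = 2.6e-08), was the second largest of the set. Hist1h4f rose by 0.96 ± 0.16 in SAFB DKO (adjusted p = 0.00030), with 49.2 and 47.7 CPM there against 26.1, 27.9 and 20.5 CPM in WT. Hist1h4b, whose stem-loop is another version than that of Hist1h4d, had 74.1 and 65.7 CPM in SAFB DKO, 14.9 and 9.59 CPM in EZH2 KO, and 50.9, 40.4 and 46.6 CPM in WT. Its fall in EZH2 KO, 1.91 ± 0.21 (adjusted p = 2.1e-05), was the largest among the H4 genes.

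**Figure D3:**
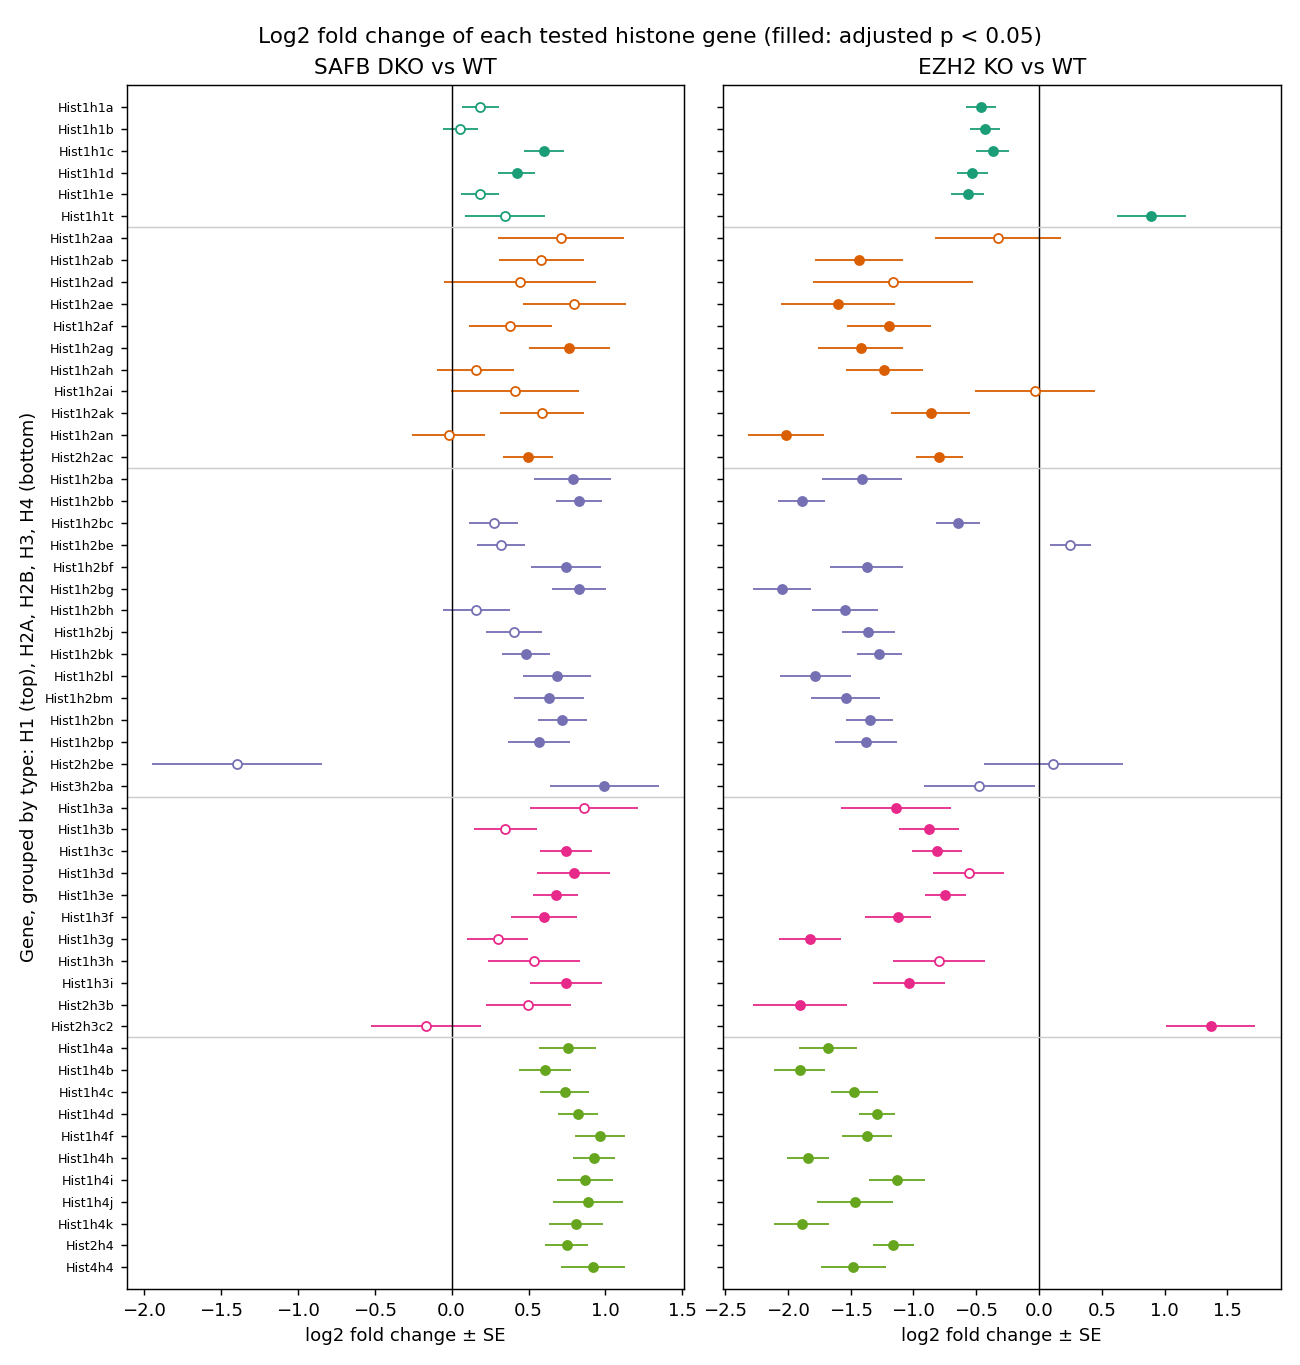
Log2 fold change ± SE of each of the 54 tested histone genes in SAFB DKO against WT (left) and EZH2 KO against WT (right), grouped by histone type from H1 at the top to H4 at the bottom. Filled points have an adjusted p under 0.05. All H4 points are right of 0 on the left and left of 0 on the right, while Hist1h1t, Hist2h3c2, Hist1h2be and Hist2h2be stand apart from their types in EZH2 KO.

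H2B, which pairs with H2A in the nucleosome, had the next most calls in SAFB DKO. Of 15 tested H2B genes, 10 rose and 0 fell in SAFB DKO, and 0 rose and 12 fell in EZH2 KO, with medians of 0.64 and -1.37. The shares over all genes were 15.3% and 34.6% in SAFB DKO and 25.3% and 22.5% in EZH2 KO. Hist1h2bn had 62.7 and 72.4 CPM in SAFB DKO, 13.1 and 19.2 CPM in EZH2 KO, and 41.4, 38.3 and 43.3 CPM in WT; it rose by 0.72 ± 0.16 in SAFB DKO (adjusted p = 0.0023). Hist1h2bb had 62.4 and 49.99 CPM in SAFB DKO, 8.57 and 8.49 CPM in EZH2 KO, and 32.5, 32.4 and 29.9 CPM in WT.

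Hist1h2bg, whose stem-loop is printed above, had 35.9 and 44.2 CPM in SAFB DKO, 6.61 and 4.25 CPM in EZH2 KO, and 23.1, 21.5 and 23.0 CPM in WT. Its fall in EZH2 KO (2.05 ± 0.23 on the log2 scale, adjusted p = 3e-05) and its difference between SAFB DKO and EZH2 KO (2.88 ± 0.24, adjusted p = 2.6e-07) were the largest of the whole set. Hist1h2bm had 49.5 and 58.0 CPM in SAFB DKO, 6.92 and 16.98 CPM in EZH2 KO, and 37.2, 33.6 and 33.0 CPM in WT. The EZH2 KO libraries of Hist1h2bm differed more than the WT libraries did, and its rise in SAFB DKO (0.64 ± 0.23, adjusted p = 0.032) lost its call without any 1 of the SAFB DKO or WT libraries.

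Hist3h2ba, on chromosome 11 apart from the main cluster, had the largest rise of any tested member in SAFB DKO, 0.99 ± 0.36 (adjusted p = 0.033), from low levels: 6.71 and 5.27 CPM in SAFB DKO against 3.58, 2.82 and 2.61 CPM in WT. Its call was also lost without any 1 of the SAFB DKO or WT libraries. Hist2h2be, a low H2B gene in which the search found no stem-loop, had the lowest log2 fold change in SAFB DKO, -1.39 ± 0.55, which did not pass (adjusted p = 0.050). It had 0.593 and 0.700 CPM in SAFB DKO, 1.65 and 2.04 CPM in EZH2 KO, and 2.25, 1.04 and 1.83 CPM in WT. Its difference between SAFB DKO and EZH2 KO passed (-1.51 ± 0.64, adjusted p = 0.049), a call that was lost under each other scaling and without any 1 library. Hist2h2bb, read through a single feature shared with the gene Gm42743 and so kept out of the gene counts, had 187 and 199 CPM in SAFB DKO, 40.6 and 43.1 CPM in EZH2 KO, and 118, 113 and 133 CPM in WT, and that feature rose in SAFB DKO (0.67 ± 0.14, adjusted p = 0.0029) and fell in EZH2 KO (-1.54 ± 0.16, adjusted p = 2.4e-05).

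Hist1h2be held 2 features whose differences ran in opposite directions. GENCODE M21 gives it a long form, chr13:23583670-23621124 on the minus strand, in which an intron separates a far upstream exon from the exon that holds the coding sequence. Its coding feature, chr13:23585481-23585955, had 36.0 and 32.5 CPM in SAFB DKO, 6.77 and 5.50 CPM in EZH2 KO, and 21.7, 19.6 and 21.1 CPM in WT. It thus followed the other H2B genes, with a rise of 0.72 ± 0.19 in SAFB DKO (adjusted p = 0.014) and a fall of 1.76 ± 0.23 in EZH2 KO (adjusted p = 0.00015).

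A second feature of Hist1h2be, chr13:23600249-23601819, lies wholly in that intron and is the only member feature in the authors' filtered list of 33671 peaks and in their short list of 10043 peaks. It had 2.01 and 1.08 CPM in SAFB DKO, 22.4 and 32.2 CPM in EZH2 KO, and 6.39, 7.15 and 7.10 CPM in WT. Its order of groups was the reverse of the coding feature's: it fell in SAFB DKO (-2.14 ± 0.31, adjusted p = 8.9e-05) and rose in EZH2 KO (1.99 ± 0.27, adjusted p = 0.00015). Its name says that it was called on WT, and how the short list was chosen is not given in the sources used here, so its fall may not be independent of that choice. Over all 10043 short-list peaks the median log2 fold change was -3.24 in SAFB DKO and 0.89 in EZH2 KO.

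Summed over all 4 of its features, Hist1h2be had 38.5 and 33.6 CPM in SAFB DKO, 30.1 and 38.5 CPM in EZH2 KO, and 29.4, 27.6 and 29.5 CPM in WT, and passed in neither comparison with WT (0.32 ± 0.16, adjusted p = 0.10, and 0.25 ± 0.16, adjusted p = 0.23). The gene sum therefore hid 2 opposite differences, and with the most abundant feature of each gene in place of the sum its log2 fold change in EZH2 KO was -1.76.

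**Figure D4:**
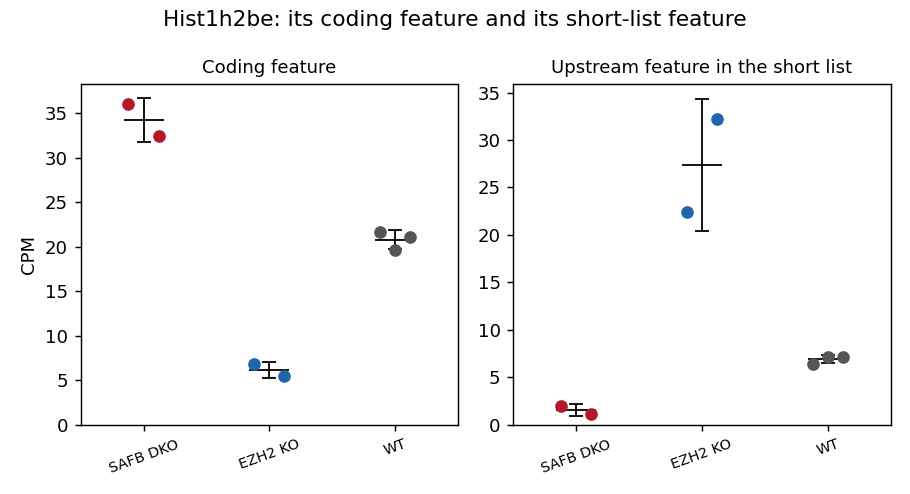
CPM (counts scaled to library size) of the coding feature (left) and of the intronic feature in the authors' short list (right) of Hist1h2be in SAFB DKO, EZH2 KO and WT. Points are libraries, and the bar and whiskers are the mean ± SD. The coding feature is highest in SAFB DKO and lowest in EZH2 KO, and the intronic feature the other way round.

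H3, the core histone that EZH2 methylates, changed in the same directions with more spread among its genes than H4. Of 11 tested H3 genes, 5 rose and 0 fell in SAFB DKO, and 1 rose and 8 fell in EZH2 KO, with medians of 0.60 and -0.87. The shares over all genes were 15.3% and 34.6% in SAFB DKO and 25.3% and 22.5% in EZH2 KO. Hist1h3e had 62.9 and 58.4 CPM in SAFB DKO, 20.3 and 25.005 CPM in EZH2 KO, and 40.5, 38.4 and 34.9 CPM in WT; it rose by 0.68 ± 0.15 in SAFB DKO (adjusted p = 0.0019) and fell by 0.75 ± 0.16 in EZH2 KO (adjusted p = 0.0024). Hist1h3c had 28.6 and 28.3 CPM in SAFB DKO, 10.52 and 8.81 CPM in EZH2 KO, and 17.9, 17.5 and 15.5 CPM in WT. In these 2 genes no libraries of different groups overlapped.

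Hist1h3g had 25.1 and 23.2 CPM in SAFB DKO, 4.06 and 7.08 CPM in EZH2 KO, and 19.1, 18.8 and 20.99 CPM in WT. It fell in EZH2 KO (-1.82 ± 0.25, adjusted p = 9.2e-05) and did not pass in SAFB DKO (0.30 ± 0.20, adjusted p = 0.22). Hist2h3c2 was the exception, with 2.14 and 2.74 CPM in SAFB DKO, 7.22 and 6.92 CPM in EZH2 KO, and 2.57, 3.53 and 2.09 CPM in WT, and a rise of 1.37 ± 0.35 in EZH2 KO (adjusted p = 0.0066). That value comes from a feature of 2496 bases of which only 32 lie in the gene, at its 3′ end, so it mostly describes sequence downstream of Hist2h3c2. Hist2h3c1 had 2 features, both shared with Gm20634 and too low to test, with 7 and 7 counts in SAFB DKO, 0 and 3 in EZH2 KO, and 6 in each WT library for the longer of them.

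H2A genes had the lowest share of calls among the core histones in SAFB DKO: of 11 tested, 2 rose and 0 fell there. That share of rises was near the 15.3% of all genes, though 10 of the 11 log2 fold changes were positive (median 0.50). In EZH2 KO 0 rose and 8 fell (median -1.19), while 25.3% of all genes rose and 22.5% fell. Hist1h2ak had 35.5 and 35.0 CPM in SAFB DKO, 19.4 and 6.29 CPM in EZH2 KO, and 26.1, 20.9 and 23.3 CPM in WT. Its EZH2 KO libraries were far apart; the fall of 0.86 ± 0.32 (adjusted p = 0.037) lost its call without EZH2 KO replicate 2, without any 1 WT library and with DESeq2. Hist2h2ac, on chromosome 3, rose in SAFB DKO (0.50 ± 0.16, adjusted p = 0.022), with 29.6 and 32.5 CPM there, 13.2 and 12.1 CPM in EZH2 KO, and 24.3, 20.1 and 21.6 CPM in WT.

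Hist1h2an fell in EZH2 KO by 2.01 ± 0.30 (adjusted p = 0.00018), with 2.86 and 4.72 CPM there against 17.2, 14.2 and 14.3 CPM in WT. In SAFB DKO it had 12.0 and 18.1 CPM, which overlapped WT (-0.02 ± 0.24, adjusted p = 0.95). Hist3h2a, on chromosome 11 and read through a feature shared with Trim17, had 40.6 and 29.7 CPM in SAFB DKO, 5.41 and 12.6 CPM in EZH2 KO, and 19.2, 18.5 and 18.2 CPM in WT; the feature rose in SAFB DKO (0.92 ± 0.25, adjusted p = 0.016) and fell in EZH2 KO (-1.05 ± 0.29, adjusted p = 0.023).

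H1, the linker histone, had the smallest changes. Its 6 genes had a median level of 394 CPM per kilobase of feature over the 7 libraries, against 97.7 for H4, 49.6 for H3, 42.8 for H2A and 36.1 for H2B. These levels leave out reads that map to several places, which bears on the types unequally. The least unique H1 transcript, Hist1h1e, had 73.4% unique stretches, while core histone transcripts went as low as 6.08% (Hist1h3h) among tested genes. The 8 genes with no feature were all core histones. Of the 6 H1 genes, 2 rose and 0 fell in SAFB DKO, and 1 rose and 5 fell in EZH2 KO, with medians of 0.27 and -0.45. The shares over all genes were 15.3% and 34.6% in SAFB DKO and 25.3% and 22.5% in EZH2 KO. The H1 medians were no farther from 0 than those of coding features of all other genes (0.31 and -0.59). Hist1h1a had 474 and 417 CPM in SAFB DKO, 279 and 289 CPM in EZH2 KO, and 399, 388 and 386 CPM in WT; it fell in EZH2 KO (-0.46 ± 0.12, adjusted p = 0.0068) and did not pass in SAFB DKO (0.19 ± 0.12, adjusted p = 0.20). It passed in SAFB DKO under each other scaling, with log2 fold changes between 0.28 and 0.44.

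Hist1h1d had 419 and 459 CPM in SAFB DKO, 220.4 and 232 CPM in EZH2 KO, and 327, 348 and 306 CPM in WT, and rose in SAFB DKO (0.42 ± 0.12, adjusted p = 0.0098). Hist1h1b had 292 and 314 CPM in SAFB DKO, 209.7 and 222 CPM in EZH2 KO, and 293, 287 and 293 CPM in WT. Its SAFB DKO libraries overlapped WT (0.06 ± 0.12, adjusted p = 0.70), while its fall in EZH2 KO passed (-0.43 ± 0.12, adjusted p = 0.0094). Hist1h1t, the linker histone of male germ cells and a low gene here, had 7.30 and 5.60 CPM in SAFB DKO, 10.4 and 8.49 CPM in EZH2 KO, and 4.60, 4.89 and 5.74 CPM in WT; it rose in EZH2 KO (0.89 ± 0.27, adjusted p = 0.016), a call lost without EZH2 KO replicate 1, without WT replicate 1 or 2, and with column totals as library sizes.

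The balance of histone types among the counted reads therefore differed between the groups, and this comparison needs no scaling between libraries. The sums behind it hold all 64 features, also the intronic feature of Hist1h2be and the one mostly downstream of Hist2h3c2. In EZH2 KO the intronic feature held 149 of 1201 and 205 of 1351 H2B counts, against 139 of 10095 in WT replicate 1. The downstream one held 48 of 499 and 44 of 551 H3 counts, against 56 of 3449. Core histone features had 1.04 and 1.13 times the counts of H1 features in SAFB DKO, 0.459 and 0.511 times in EZH2 KO, and 0.846, 0.802 and 0.866 times in WT. The SAFB DKO libraries were above and the EZH2 KO libraries below every WT library. The mean was 1.08 ± 0.0670 in SAFB DKO (SD, n = 2) and 0.838 ± 0.0330 in WT (SD, n = 3; exact permutation p = 0.10), and 0.485 ± 0.0373 in EZH2 KO (SD, n = 2; exact permutation p = 0.10 against WT). H4 alone took 21.03% ± 0.669 of the histone counts in SAFB DKO, 10.2% ± 0.604 in EZH2 KO and 16.8% ± 0.469 in WT (SD, n = 2, 2 and 3), and H1 took 48.0% ± 1.54, 67.4% ± 1.69 and 54.4% ± 0.982 in SAFB DKO, EZH2 KO and WT. Reads that map to several places are missing from these shares, so the level of H1 against core histones within a library is uncertain. How many such reads each library lost is not known, and the EZH2 KO libraries may come from another sequencing run. Whether this has a part in the differences between the groups was not tested.

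Each feature was also tested alone, over 192964 features. In SAFB DKO against WT, 25 of 62 tested histone features rose and 1 fell, the intronic feature of Hist1h2be, while 2.26% of all features rose and 17.4% fell. In EZH2 KO against WT, 3 rose and 44 fell, while 7.5% of all features rose and 8.07% fell. In SAFB DKO against EZH2 KO, 52 were higher and 3 lower in SAFB DKO, while 16.6% of all features were higher there and 23.3% lower. As 57 of the 64 histone features are coding, coding features of other genes are the closer background. Of these, 4.77% rose and 5.30% fell in SAFB DKO, and 4.16% rose and 13.9% fell in EZH2 KO. Between the knockouts, 30.5% of them were higher and 8.26% lower in SAFB DKO. The count of called features in SAFB DKO against WT, 26, depended on single libraries: it was 15 without SAFB DKO replicate 1, 11 without SAFB DKO replicate 2, 41 without either EZH2 KO library, 11 without WT replicate 1, 10 without WT replicate 2 and 16 without WT replicate 3. In EZH2 KO against WT it was 29 without WT replicate 1, against 47 with all libraries. The 5 features with the most CPM were those of Hist1h1a, Hist1h1d, Hist1h1b, Hist1h1c and Hist1h1e, and their CPM are those of the genes; Hist1h1c, with 404 and 349 CPM in SAFB DKO against 262, 259 and 224 CPM in WT, rose there.

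Coding features were set apart from the other features in a description added after the values were seen. Over the 71451 tested coding features of other genes, the median log2 fold change was 0.31 in SAFB DKO and -0.59 in EZH2 KO, while the 51 coding features of core histones had medians of 0.69 and -1.35 and the 6 of H1 had 0.27 and -0.45. Core histone coding counts were 0.359% and 0.375% of the coding counts of other genes in SAFB DKO, 0.0907% and 0.0885% in EZH2 KO, and 0.237%, 0.221% and 0.226% in WT. Relative to other coding RNA of the same library, core histones thus stood 1.61-fold higher in SAFB DKO than in WT, and at 0.393 times the WT value in EZH2 KO (exact permutation p = 0.10 each). H1 moved less on this measure, with 0.347% and 0.332% in SAFB DKO, 0.213% and 0.188% in EZH2 KO, and 0.284%, 0.280% and 0.263% in WT. At the gene level, over all features of a gene and not coding ones alone, the 282 other protein-coding genes without introns did not share the direction of the histone genes. Their median log2 fold change was -0.40 in SAFB DKO and 0.32 in EZH2 KO, and their coding features were not set apart.

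Genes of DNA replication, which like histone genes are most active around S phase, changed in the same directions. Of 27 tested genes of a list of 28, 18 rose and 3 fell in SAFB DKO (median 0.43), where 15.3% of all genes rose and 34.6% fell. In EZH2 KO 4 rose and 21 fell (median -0.96), while 25.3% of all genes rose and 22.5% fell. The coding features of the listed genes had medians of 0.51 and -0.97, against 0.31 and -0.59 for coding features of all other genes. Mcm6, a subunit of the replicative helicase, had 236 and 247 CPM in SAFB DKO, 55.2 and 57.1 CPM in EZH2 KO, and 129.98, 135 and 147 CPM in WT. Rrm2, a subunit of ribonucleotide reductase, had 136 and 160.5 CPM in SAFB DKO, 33.8 and 37.9 CPM in EZH2 KO, and 77.0, 76.0 and 88.1 CPM in WT. In both genes the groups were apart in the same order as in H4. The helicase genes Mcm2, Mcm3, Mcm4, Mcm5 and Mcm7 also rose in SAFB DKO and fell in EZH2 KO, as did Ccne1, Rrm1, Dut, Cdc6, Gmnn, Lig1, Pold1, Tipin, Uhrf1 and Slbp. Fen1 rose in EZH2 KO (0.49, adjusted p = 0.0077) and did not pass in SAFB DKO (-0.22, adjusted p = 0.17).

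The 3 that fell in SAFB DKO were Orc1, Gins1 and Pola1, and these rose in EZH2 KO. Orc1 and Gins1 each hold 1 peak of the authors' short list and Pola1 holds 3. Gene counts can include such peaks, as in Hist1h2be, and of all short-list peaks 96.9% fell and 0 rose in SAFB DKO. A gene sum with such a peak is thus drawn down, so a lack of these peaks among genes that rose carries no information. The coding features of these 3 genes were not looked at apart, and the part of the peaks in their fall was not tested. Pola1, the catalytic subunit of DNA polymerase alpha and the gene of the list with the most CPM, had 182 and 216 CPM in SAFB DKO, 372 and 582 CPM in EZH2 KO, and 322, 337 and 319 CPM in WT. Pole, the catalytic subunit of DNA polymerase epsilon, had 245 and 259 CPM in SAFB DKO, 169 and 208 CPM in EZH2 KO, and 252, 240.1 and 255 CPM in WT. Pole did not pass in SAFB DKO (0.02, adjusted p = 0.91) and fell in EZH2 KO (-0.40, adjusted p = 0.021).

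Set against the coding counts of these replication genes instead of all coding RNA, core histones were still apart between the groups, by less. Their counts were 59.8% and 62.4% of the replication genes' coding counts in SAFB DKO, 33.6% and 34.4% in EZH2 KO, and 56.2%, 52.5% and 50.6% in WT. The mean was 61.1% ± 1.88 in SAFB DKO (SD, n = 2) and 53.1% ± 2.87 in WT (SD, n = 3), 1.15-fold higher (exact permutation p = 0.10), and 34.0% ± 0.571 in EZH2 KO (SD, n = 2), 0.641 times WT (exact permutation p = 0.10). H1 went the other way on this measure, with 57.8% and 55.3% in SAFB DKO, 79.0% and 73.3% in EZH2 KO, and 67.2%, 66.4% and 59.0% in WT (exact permutation p = 0.20 for SAFB DKO and 0.10 for EZH2 KO).

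**Figure D5:**
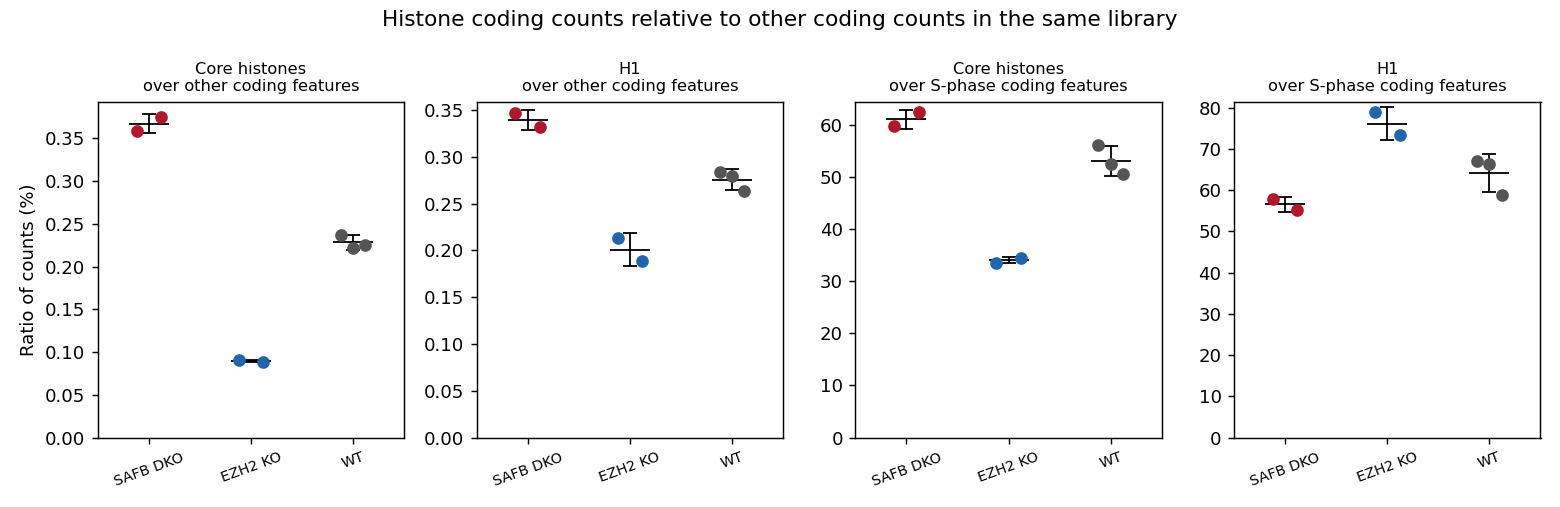
Counts in coding features of core histones and of H1, as a percent of the counts in coding features of all other genes (left pair) and of replication genes (right pair) of the same library. Points are libraries, and the bar and whiskers are the mean ± SD. Core histones are highest in SAFB DKO and lowest in EZH2 KO in both, while H1 keeps that order only against all other genes.

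The listed machinery that makes and ends histone messengers did not move as a block. Of its 19 genes, all tested, 6 rose and 5 fell in SAFB DKO (31.6% and 26.3%, against 15.3% and 34.6% of all genes). In EZH2 KO 6 rose and 8 fell (31.6% and 42.1%, against 25.3% and 22.5% of all genes). Slbp, which binds the stem-loop, had 41.3 and 49.9 CPM in SAFB DKO, 10.52 and 8.96 CPM in EZH2 KO, and 28.9, 28.8 and 27.6 CPM in WT, and rose by 0.68 in SAFB DKO (adjusted p = 0.0025) and fell by 1.54 in EZH2 KO (adjusted p = 4.6e-05). Npat, the activator of histone gene transcription, had 63.1 and 74.5 CPM in SAFB DKO, 208 and 236 CPM in EZH2 KO, and 153.5, 175 and 164 CPM in WT. Npat was thus low where Slbp was high.

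Casp8ap2, known as FLASH and needed for histone 3′ end processing, had 107 and 121 CPM in SAFB DKO, 362 and 488 CPM in EZH2 KO, and 292, 268 and 297 CPM in WT. Upf1, a helicase that takes part in the decay of histone messengers, had 281 and 271 CPM in SAFB DKO, 142 and 128 CPM in EZH2 KO, and 178, 188 and 192 CPM in WT. Sympk, Cstf2, Cpsf1 and Ncbp1 also rose in SAFB DKO and fell in EZH2 KO, and Zfp473, Coil and Tut7 fell in SAFB DKO and rose in EZH2 KO. Coil and Ncbp2 each hold 1 short-list peak, and Ncbp2 did not pass in SAFB DKO (-0.42, adjusted p = 0.068).

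The histone variants listed as independent of replication were mixed. Of 11 tested, 5 rose and 2 fell in SAFB DKO (45.5% and 18.2%, against 15.3% and 34.6% of all genes). In EZH2 KO 2 rose and 4 fell (18.2% and 36.4%, against 25.3% and 22.5% of all genes). H3f3b, which encodes the variant H3.3, had 109 and 95.3 CPM in SAFB DKO, 23.9 and 28.8 CPM in EZH2 KO, and 51.1, 48.3 and 57.1 CPM in WT. H2afv and H2afy also rose in SAFB DKO and fell in EZH2 KO. H1f0, the linker histone of resting and differentiating cells, had 31.5 and 30.2 CPM in SAFB DKO, 96.2 and 81.8 CPM in EZH2 KO, and 41.6, 48.0 and 40.8 CPM in WT, and H2afj was likewise low in SAFB DKO and high in EZH2 KO. The 2 variants with the most CPM, Cenpa and H2afx, rose in SAFB DKO (0.38, adjusted p = 0.036, and 0.45, adjusted p = 0.013) and did not pass in EZH2 KO.

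Among 15 tested histone chaperones, 3 rose and 4 fell in SAFB DKO (20.0% and 26.7%), near the 15.3% and 34.6% of all genes. In EZH2 KO 3 rose and 8 fell (20.0% and 53.3%, against 25.3% and 22.5% of all genes). Rbbp4, a subunit of chromatin assembly factor 1 and of Polycomb repressive complex 2, had 189.8 and 204 CPM in SAFB DKO, 32.8 and 52.8 CPM in EZH2 KO, and 113, 125 and 134 CPM in WT. Npm1 also rose in SAFB DKO (0.75, adjusted p = 0.0060) and fell in EZH2 KO (-0.81, adjusted p = 0.0055), and Chaf1b fell in SAFB DKO (-1.05, adjusted p = 0.00072) and rose in EZH2 KO (0.50, adjusted p = 0.045). Chaf1b and Hira each hold 1 short-list peak, and Hira did not pass in SAFB DKO (0.14, adjusted p = 0.54). Nasp, which carries H3 and H4, and Atrx, which deposits H3.3, were the chaperones with the most CPM; both fell in SAFB DKO (-1.37, adjusted p = 7.9e-06, and -0.86, adjusted p = 0.00050) and did not pass in EZH2 KO (0.16, adjusted p = 0.38, and -0.18, adjusted p = 0.34).

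Markers of the cell type moved too. Of 7 tested markers of embryonic stem cells, 5 rose and 1 fell in SAFB DKO, where 15.3% of all genes rose and 34.6% fell. In EZH2 KO 2 rose and 4 fell, while 25.3% of all genes rose and 22.5% fell. Pou5f1 had 329.8 and 325 CPM in SAFB DKO, 101 and 87.4 CPM in EZH2 KO, and 199, 188 and 207 CPM in WT. Nanog, Dppa5a and Tdgf1 also rose in SAFB DKO and fell in EZH2 KO, Zfp42 fell in SAFB DKO and rose in EZH2 KO, and Esrrb rose in SAFB DKO and did not pass in EZH2 KO. Klf4 rose in EZH2 KO (0.67, adjusted p = 0.0021) and did not pass in SAFB DKO (-0.18, adjusted p = 0.31). Sox2, also on the list, had no count of its own. Markers of fibroblast feeders and of early differentiation were low: 3 of 5 and 3 of 7 were tested, Col3a1 had at most 0.376 CPM in any library, and the highest level of any other was 8.14 CPM (Col1a1 in WT replicate 1). Of these 6 tested markers, Gata4 fell in SAFB DKO, Pax6 fell in EZH2 KO, and 0 rose in either. Their part in the histone result was not tested.

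Members were also divided by how much of their transcript is unique. Among 31 tested members in which at least 50% of the 50-base stretches are unique, 20 rose and 0 fell in SAFB DKO and 1 rose and 25 fell in EZH2 KO, with medians of 0.74 and -1.13. Among the 23 with fewer unique stretches, 10 rose and 0 fell in SAFB DKO and 1 rose and 19 fell in EZH2 KO, with medians of 0.54 and -1.35. The shares over all genes were 15.3% and 34.6% in SAFB DKO and 25.3% and 22.5% in EZH2 KO. The division is by whole transcript, while most counted features are coding. In Hist1h2bc 70.0% of all stretches but 2.41% of coding ones are unique, so the counts are not cleanly sorted by mapping. All H1 genes fall among the 31, so histone type is mixed in.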

How the data were processed

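RNA precipitated with the EZH2 antibody was sequenced in 7 libraries, made with a KAPA RNA HyperPrep kit with ribosomal RNA removal, per the labels' protocols. The authors deposited raw read counts per feature; per the file headers they came from featureCounts 2.0.3, set to reverse-stranded reads, without multi-mapping reads and without assigning a read to several features. Subread and mm10 are named in the submitters' processing notes; the aligner and peak caller are not given in the sources used here. Column names carry a filtering tag whose meaning is not given there either. The spike-in RNA was not analysed, and 6 columns of values (pooled or IgG) were not used.

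From these counts, features were assigned to GENCODE M21 basic genes by strand and overlap, and counts of features of 1 gene were summed. Tests were edgeR 4.0.16 quasi-likelihood tests in R 4.3.3, with the 7 libraries in one fit by group and Benjamini-Hochberg adjustment over all genes or features tested. Each column total was multiplied by a TMM factor, estimated on tested features outside the filtered peak list. The procedure was tested on simulated data. Single values per library were compared by exact permutation, whose smallest p is 0.10 for 2 against 3 libraries and 0.333 for 2 against 2. Alternatives covered scaling, DESeq2 1.42.0, filters, gene assignment, single libraries left out and a replicate block. Both SAFB DKO titles carry replicate number 1, so they were numbered in label order. Per the labels, the libraries of a group come from different clones, or for WT also the parental line, so p-values measure the spread between such lines.

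Named members were, by rule, the 3 tested members of each histone type with the most CPM, the 3 with the largest called change in each comparison and direction, the 5 features with the most CPM and listed features; in each context list, the 2 genes with the most CPM and those called in opposite directions in the knockouts. Hist2h2bb and Hist3h2a, outside this rule, and the genes of each list given with values per library were chosen after their values were seen. The members and lists were chosen with earlier results of these data known. Total counts per library ranged from 7050832 to 21832539.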

Additional observations from a re-analysis of the deposited data

How the results depend on the processing

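The fall in EZH2 KO and the difference between SAFB DKO and EZH2 KO kept their direction and stayed within 1.5 times their count of called genes under each alternative run. The number of histone genes called in SAFB DKO against WT, 30, ranged from 17 to 38 with single libraries left out, and was 44 with column totals, 43 with DESeq2 and 35 with TMM over all features. The number of histone features called there, 26, was 41 with column totals, 41 with DESeq2 and 41 with only the 2 groups compared, and ranged from 10 to 41 with single libraries left out. In EZH2 KO against WT, 47 features were called, and 29 to 50 with single libraries left out. The causes were not tested. For Hist1h2be in EZH2 KO against WT the log2 fold change was 0.25 over the gene and -1.76 with the top feature of each gene, since the gene sum adds an intronic feature. The numbers of EZH2 KO and WT libraries did not pair them (correlation of deviations 0.025, EZH2 KO replicate 1 with WT replicate 1); with a replicate block, 44 genes and 41 features were called in EZH2 KO against WT, and the share of counts in histone features, EZH2 KO vs WT, differed by -0.134 percentage points. Depth limits the EZH2 KO values most. Where an alternative left 1 library in a group, that library was assumed to vary like the others.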
